A study of Homo sapiens with 4 samples.

Results

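The genes of the HUSH silencing complex and its partners were described in Jurkat, a cell line established from T-cell acute lymphoblastic leukemia, after migration through narrow pores. These are 8 genes (TASOR, TASOR2, MPHOSPH8, PPHLN1, MORC2, SETDB1, ATF7IP and TRIM28) of the 17687 genes that the platform's annotation names by a single symbol on the human Clariom S array, a single-colour array for well-annotated transcripts. They were chosen by name, for their role in the HUSH pathway, at a time when the difference of TASOR2 between migrated and control cells was known from these same arrays. Differences of the 8 genes between the groups are therefore given as a description, with no test. Each gene had 1 probe set, of 21448 on the array.

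ORM (one-round migration) cells had crossed inserts with 3 μm pores within 24 h and were collected below them, and control cells are given in the treatment protocol as Jurkat cells in ordinary suspension culture and in the series design as non-migrated. There were 2 arrays for each group, named in the labels as biological replicates with nothing that says whether the cultures were separate. Standard errors are from limma's linear model, which draws each probe set's spread between these 4 arrays towards that of all probe sets. A gene whose arrays vary widely can thus have a smaller standard error than its own spread gives. The spread between arrays may be technical. In such bulk samples, fewer cells of a type and less RNA per cell cannot be told apart. The description field of the samples goes against these groups: it calls ORM replicate 1 a control, ORM replicate 2 cells from a 3D culture, and both control replicates suspension cells that had been through 3D confinement. The arrays were assigned by title, source and series design, which give the same groups, and every direction below rests on that assignment.

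HUSH is a complex of TASOR, MPP8 (encoded by MPHOSPH8) and periphilin (encoded by PPHLN1), and it silences retroelements, integrated viruses and some intronless genes. MPP8 binds methylated lysine 9 of histone H3 and periphilin binds RNA, while TASOR is the scaffold that joins them. Silencing also needs MORC2, an ATPase that compacts chromatin, and SETDB1, the methyltransferase that writes the mark together with its stabilizing partner ATF7IP. TRIM28 (KAP1) is the corepressor through which KRAB zinc finger proteins bring SETDB1 to DNA. TASOR2 is a paralogue of TASOR and takes its place in a second assembly, HUSH2, with the same MPP8 and periphilin.

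TASOR2 was 2.26-fold higher after migration than in the control, whereas its paralogue TASOR was 1.16-fold lower. ATF7IP and TRIM28 were 1.44-fold and 1.33-fold higher, and MPHOSPH8 and PPHLN1 1.23-fold and 1.17-fold higher, and in these 6 genes the groups did not overlap. Of all probe sets, 21.4% had both ORM arrays above both control arrays and 24.2% had both below. SETDB1 and MORC2 differed by less than their spread in the control arrays. Only TASOR2 passed the threshold that the study used for these arrays, a fold change over 1.8 with an unadjusted p under 0.05.

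The arrays were similar in their overall level, with median log2 signals of 5.96 to 6.04 and lower quartiles of 4.14 to 4.26. Control replicate 2 stood apart: over all probe sets its log2 difference from control replicate 1 had an SD of 0.404, while that SD was 0.248 for the ORM pair and 0.292 for replicate 1 of ORM against replicate 1 of control. Over the 8 genes these SDs were 0.368, 0.130 and 0.357. Of 15 markers of T-cell acute lymphoblastic leukemia cells, such as CD3E, LCK and TAL1, 14 lay above the median of every array and none passed the threshold. Above every array median were also 3 of 4 measured B-cell markers and 3 of 5 epithelial or fibroblast markers. The same held for 1 of 3 erythroid and 0 of 5 myeloid markers, so a signal above the median does not by itself identify the cell type. The B-cell markers had a slightly lower sum of 4 log2 signals in ORM cells (24.99 and 25.13) than in control cells (25.80 and 25.90). CD79A read 9.69 and 9.90 in ORM cells against 10.06 and 10.25 in control cells, and PAX5 6.15 and 6.17 against 6.67 and 6.67. CD79B read 6.46 and 6.20 against 6.48 and 6.25. MS4A1 (CD20), at 2.59 to 2.86, lay below the lower quartile of every array. The sums of the myeloid, erythroid and epithelial or fibroblast markers overlapped between the groups. The part of these differences in the results below was not tested.

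TASOR2, on chromosome 10 (5684838 to 5763740, GRCh38.p14), had log2 signals of 6.21 in ORM replicate 1, 5.88 in ORM replicate 2, 5.11 in control replicate 1 and 4.63 in control replicate 2. Both ORM arrays lay above both control arrays, with a gap of 0.77 between the nearest pair. The control signals were weak, since both lay below the medians of their arrays, though above the lower quartile of 4.26. In ORM cells, replicate 1 lay above the median of its array and replicate 2 slightly below. Whether the control signals were above background is not known. The means were 6.05 ± 0.23 (SD, n = 2) after migration and 4.87 ± 0.34 (SD, n = 2) in the control, which makes the log2 fold change 1.18 (standard error, SE, 0.22). This was the 10th largest log2 fold change among the 21448 probe sets, and it was the value known when the genes were chosen.

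The size of the difference depended on the control array. Against control replicate 1 alone, the mean of the ORM arrays was higher by a log2 value of 0.94, and against control replicate 2 alone by 1.42. TASOR2 was past the threshold with any 1 of the 4 arrays left out, but such a fit has 1 array in a group, which is assumed to vary like the pair of the other group, and is a weak check. By the methods' t-test, which uses only the spread of the gene itself, it did not pass.

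The paralogue TASOR, on chromosome 3 (56620132 to 56683265), had log2 signals of 8.29 and 8.23 after migration against 8.37 and 8.57 in control replicates 1 and 2. Both ORM arrays thus lay below both control arrays, but by only 0.08 at the nearest pair. The log2 fold change was -0.21 (SE 0.17), and the value for TASOR2 exceeded that for TASOR by 1.39. The levels of both genes were not compared, since they come from different probes.

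The promoter windows of both paralogues are shown because their log2 fold changes had opposite signs, together with that of ATF7IP, the gene with the next largest difference. Each runs from 250 bases before to 30 bases after the most upstream start site in RefSeq (GRCh38.p14), 5′ to 3′ on the strand of the gene. The windows are chr10:5684588-5684867 (plus strand) for TASOR2, chr3:56683236-56683515 (minus strand) for TASOR and chr12:14365432-14365711 (plus strand) for ATF7IP. Capitals mark matches, on either strand, to the ETS motif CCGGAAG, the CCAAT box CCAAT, the GC box GGGCGG, the NRF1 core TGCGCA and the E-box CACGTG.
TASOR2: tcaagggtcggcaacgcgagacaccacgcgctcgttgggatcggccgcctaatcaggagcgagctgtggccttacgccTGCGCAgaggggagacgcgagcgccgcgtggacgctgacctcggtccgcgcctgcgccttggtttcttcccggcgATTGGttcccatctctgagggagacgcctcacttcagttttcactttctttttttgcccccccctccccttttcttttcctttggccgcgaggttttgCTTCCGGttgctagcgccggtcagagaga
TASOR: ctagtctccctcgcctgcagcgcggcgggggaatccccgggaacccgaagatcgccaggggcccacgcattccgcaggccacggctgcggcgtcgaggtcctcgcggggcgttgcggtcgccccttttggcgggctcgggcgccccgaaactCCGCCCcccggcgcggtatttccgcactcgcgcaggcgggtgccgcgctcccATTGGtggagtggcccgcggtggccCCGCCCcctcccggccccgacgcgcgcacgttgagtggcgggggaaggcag
ATF7IP: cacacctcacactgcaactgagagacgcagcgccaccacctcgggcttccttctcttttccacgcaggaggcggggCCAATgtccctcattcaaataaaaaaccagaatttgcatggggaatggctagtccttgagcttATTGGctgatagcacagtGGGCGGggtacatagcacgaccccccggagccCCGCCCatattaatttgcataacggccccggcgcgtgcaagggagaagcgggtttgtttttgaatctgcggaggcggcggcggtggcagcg

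TASOR2 and TASOR share a CCAAT box, whose first base lies at -97 and -46 from the start site. Apart from it, the matches differed. The TASOR2 window holds an ETS match whose first base is at position 2 after the start and an NRF1 core at -172, and no GC box. The TASOR window holds GC boxes at -98 and -21 and neither an ETS match nor an NRF1 core. ATF7IP has CCAAT boxes at -174 and -111 and GC boxes at -93 and -61. The G and C content was 61.8% for TASOR2, 76.1% for TASOR and 57.9% for ATF7IP.

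Windows were available for 7 of the 8 genes, all but TRIM28. Of these, 5 hold a CCAAT box (34.7% of 27305 genes with such a window), 4 a GC box (43.6%), 2 an ETS match (10.3%), 1 an NRF1 core (8.13%) and 1 an E-box (7.11%). The second ETS match is in PPHLN1, at -12, and the E-box is in SETDB1, at -48. A match describes only these letters and is neither a binding site nor a cause of a difference.

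**Figure D1:**
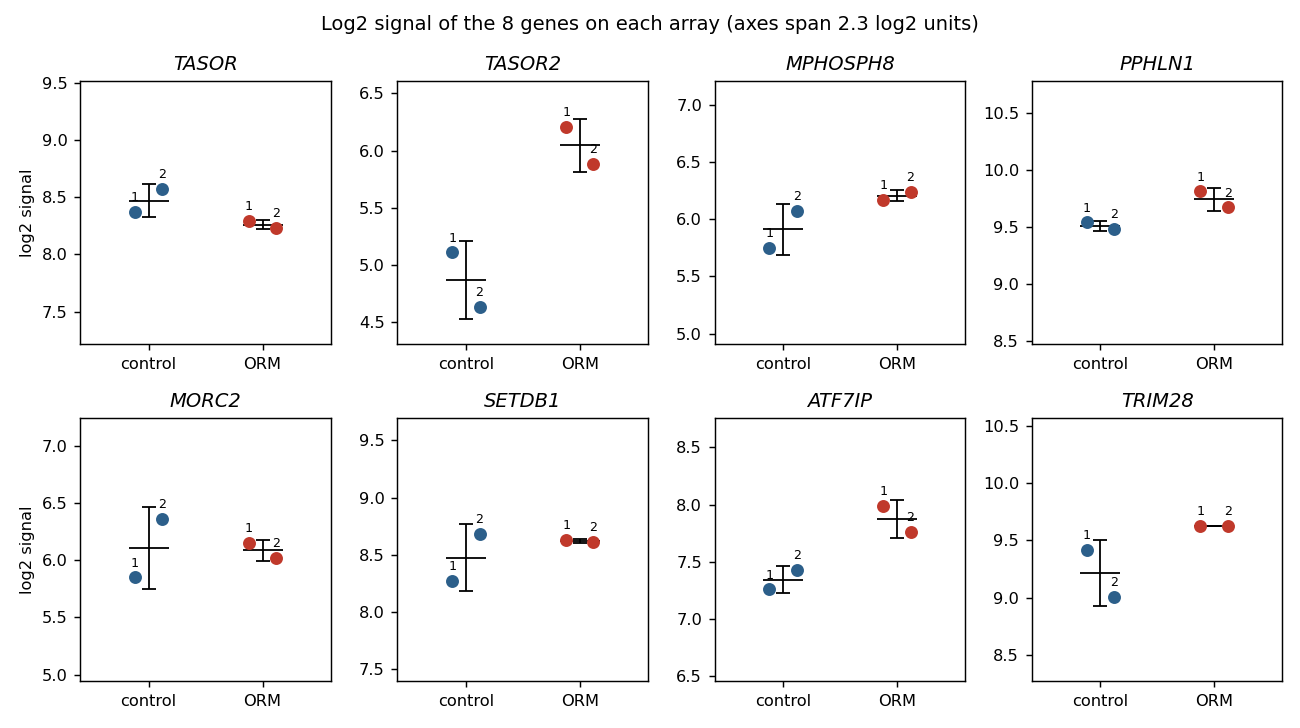
Log2 signal of each of the 8 genes (y axis; every panel spans the same range of log2 units) in control and ORM cells (x axis). Points are single arrays with their replicate number, and bars show mean ± SD (n = 2). TASOR2 separates most, with 5.88 and 6.21 in ORM cells and 4.63 and 5.11 in control cells, while SETDB1 and MORC2 overlap.

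MPHOSPH8, on chromosome 13 (19633659 to 19673441), encodes the reader of the histone mark and serves both HUSH and HUSH2. Its log2 signals were 6.17 and 6.24 after migration against 5.75 and 6.07 in the control. Both ORM arrays were above both control arrays, by 0.10 at the nearest pair, and the means were 6.21 ± 0.05 (SD, n = 2) and 5.91 ± 0.23 (SD, n = 2). The log2 fold change was 0.30 (SE 0.18), with 0.46 against control replicate 1 alone and 0.14 against control replicate 2 alone.

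PPHLN1, on chromosome 12 (42326167 to 42448621), encodes periphilin, the RNA-binding subunit of both complexes. It read 9.81 and 9.67 in ORM cells against 9.54 and 9.48 in control cells, again with both ORM arrays higher. The log2 fold change was 0.23 (SE 0.16). PPHLN1 had the tightest control arrays of the 8 genes, 0.06 apart, and 87.5% of all probe sets had a wider gap there.

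MORC2, on chromosome 22 (30925130 to 30968774), and SETDB1, on chromosome 1 (150926263 to 150964737), act downstream of the HUSH core. MORC2 read 6.15 and 6.02 in the ORM arrays, which fell between 5.85 in control replicate 1 and 6.36 in control replicate 2. Its log2 fold change was -0.02 (SE 0.21), and it was 0.24 against control replicate 1 alone and -0.28 against control replicate 2 alone, so no direction was measurable (the value was 0.04 with quantile normalization). SETDB1 read 8.63 and 8.61 in the ORM arrays, between 8.27 and 8.68 in the control arrays. Its log2 fold change was 0.15 (SE 0.19), with 0.35 and -0.06 against each control array. In both genes the ORM arrays were close, 0.13 and 0.02 apart, and the control arrays were 0.51 and 0.41 apart.

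ATF7IP, on chromosome 12 (14365682 to 14502930), encodes the partner that keeps SETDB1 in the nucleus and protects it from degradation. It read 7.99 and 7.76 in ORM cells against 7.26 and 7.43 in control cells. Both ORM arrays were higher than both control arrays, by 0.33 at the nearest pair, and the means were 7.88 ± 0.16 (SD, n = 2) and 7.35 ± 0.12 (SD, n = 2). The log2 fold change was 0.53 (SE 0.17), below the log2 value of 0.85 that the threshold asks for. It was 0.62 and 0.45 against each control array, so both ORM arrays were on average higher than either control array.

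TRIM28, on chromosome 19 (58544064 to 58550715), encodes the corepressor of KRAB zinc finger proteins. It read 9.63 in both ORM arrays, against 9.42 in control replicate 1 and 9.01 in control replicate 2. The log2 fold change was 0.42 (SE 0.19), with 0.21 against the first control array and 0.62 against the second. The ORM arrays were the same to 2 decimals, and control replicate 2 was the lowest of the 4 arrays.

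**Figure D2:**
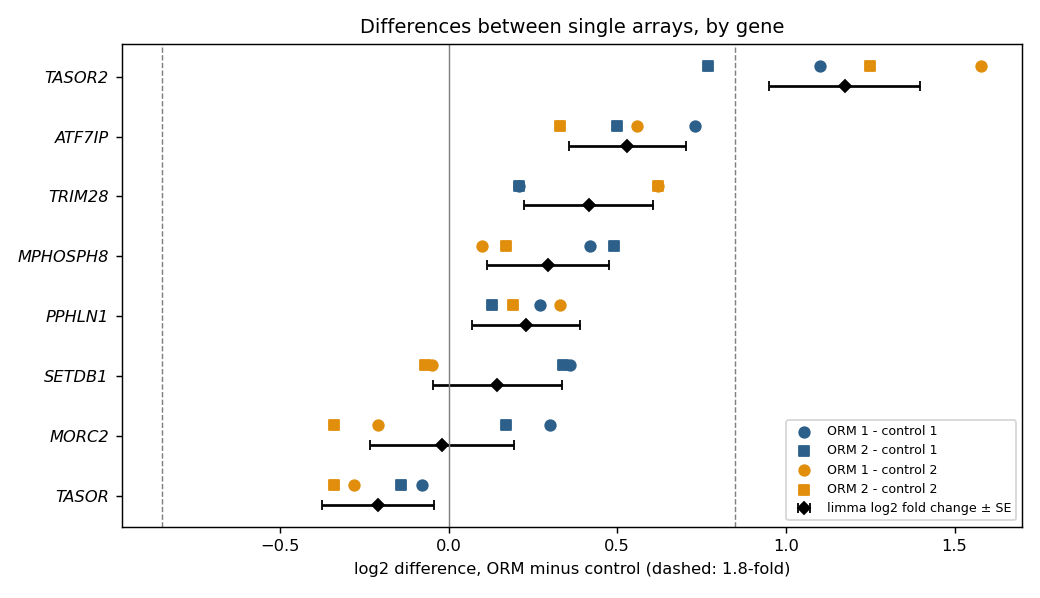
Log2 difference between each ORM array and each control array (x axis; circles and squares, coloured by control array) for the 8 genes (y axis), with the log2 fold change and its standard error from limma as diamonds. The 4 differences of TASOR2 run from 0.77 to 1.58, those of ATF7IP from 0.33 to 0.73, and those of MORC2 and SETDB1 fall on both sides of 0.

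As a group, 6 of the 8 genes had a log2 fold change above 0 and 2 below 0, with a median of 0.26. Above 0 were 9606 of all 21448 probe sets, and 4534 of the 7500 with a mean log2 signal of 7 or more. The median over all probe sets was -0.04, but it depended on brightness, with 0.01 for probe sets whose mean log2 signal was 5 or more and 0.08 for those at 7 or more. The highest and the lowest value of the 8 genes belong to the paralogues TASOR2 (1.18) and TASOR (-0.21). Past the threshold were 1 of 8 genes higher and 0 lower, where 0.424% of all probe sets were higher (91) and 0.28% lower (60). With arrays centred on their medians these numbers were 123 and 42. Both ORM arrays lay above both control arrays in 5 of the 8 genes, as in 21.4% of all probe sets, and below them in 1, as in 24.2%. Among probe sets whose mean log2 signal was 7 or more, the first share was 38.5%. Because TASOR2 was known when the genes were chosen, nothing is read from these counts. After Benjamini-Hochberg adjustment the lowest p that limma gave over the array was 0.428, so 0 probe sets were below 0.05, and 2447 were before adjustment.

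**Figure D3:**
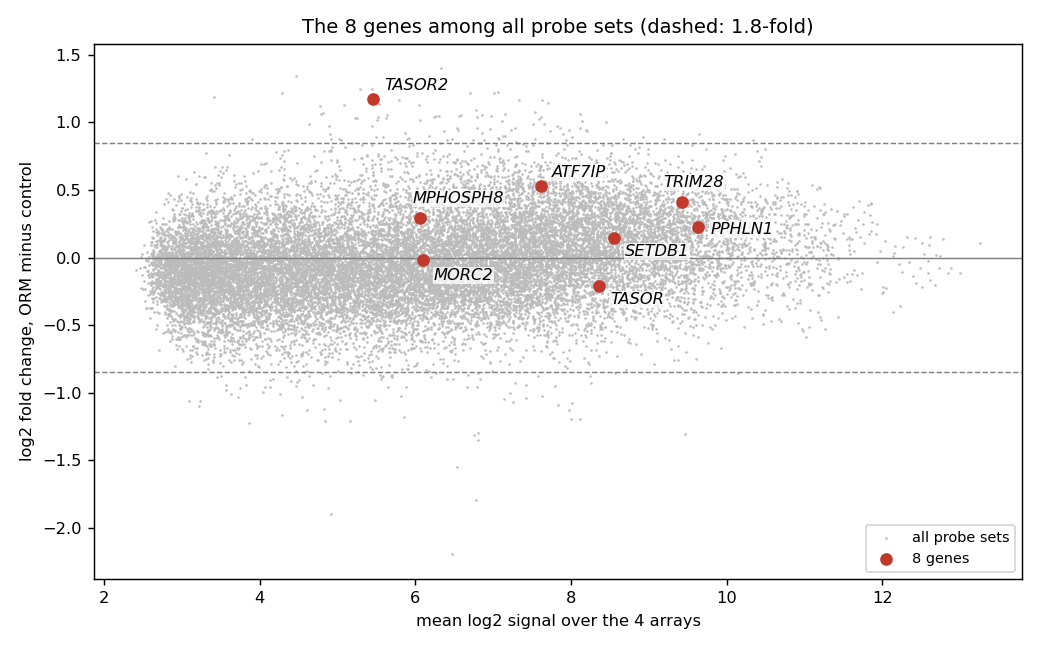
Log2 fold change of ORM against control cells (y axis) by mean log2 signal over the 4 arrays (x axis) for 21448 probe sets in grey and the 8 genes in red, with dashed lines at a fold change of 1.8. TASOR2 lies above the upper line at 1.18, and the other 7 genes lie between -0.21 and 0.53.

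The genes whose 4 values were most like those of TASOR2 were LAMTOR3, SLC9B2, KIF9, CTDSPL and RIOK1. Likeness was the root mean square difference over 4 arrays after the mean of each probe set had been subtracted, and it was 0.08 for LAMTOR3, an adaptor of growth signalling on late endosomes, and 0.11 to 0.13 for the others. LAMTOR3 read 5.90 and 5.58 in ORM cells against 4.89 and 4.52 in control cells. Like TASOR2, all 5 were lowest in control replicate 2 and highest in ORM replicate 1, which the search for likeness favours.

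The wider machinery was described through 10 gene lists, and in 8 of them no gene passed the threshold in either direction. The exceptions were both lists of ZNF genes, with 5 genes higher and none lower. The medians of all lists lay between -0.09 and 0.24 on the log2 scale, against -0.04 over all probe sets. Over probe sets with a mean log2 signal of 7 or more that median was 0.08, and the lists were not matched for brightness. Counts of list genes above 0 are to be read beside 9606 of all 21448 probe sets. Among the probe sets at 7 or more, 4534 of 7500 were above 0. The list medians also depended on the scaling. With quantile normalization they lay between -0.06 and 0.20, with 0.13 for NuRD and 0.15 for H3K9 methylation and HP1. With arrays centred on their medians they lay between -0.04 and 0.29. The genes CBX3, CBX1, IRF2BP1, IRF2BPL, ZNF638, DNMT3A, HELLS, RIGI and IFIH1 are named for their roles and were picked after their values had been seen, while the others follow the rule for named genes.

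Of 8 measured genes for methylation of histone H3 lysine 9 and for HP1 proteins, none passed and the median log2 fold change was 0.24. ZNF644, a partner of the methyltransferases G9a and GLP, read 8.74 and 8.84 in ORM cells against 8.42 and 8.18 in control cells, giving a log2 fold change of 0.49 (SE 0.17). SUV39H2, a methyltransferase of pericentromeric chromatin, had 0.38 (SE 0.19), and 0.22 without ORM replicate 2. The HP1 genes CBX3 and CBX1, which encode readers of the mark, had 0.30 and -0.19 (SE 0.21 and 0.16). Within this list 5 genes had a value above 0 and 3 below.

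Of 10 close relatives of the HUSH genes and partners, none passed, 3 were above 0 and 7 below, and the median was -0.05 (0.005 with arrays centred on their medians). MORC3, a relative of MORC2 that represses retroelements, had 0.26 on the log2 scale (SE 0.16). TRIM24, a relative of TRIM28, read 6.84 and 6.74 in ORM cells but 5.70 and 6.83 in control cells, so its value of 0.53 (SE 0.35) rested on control replicate 1. It was 1.09 without control replicate 2 and -0.04 without control replicate 1. The first value was past the threshold, but its spread came from the ORM pair (SD 0.07), while the SD of the control pair was 0.80.

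TRIM28 acts with the NuRD deacetylase complex and with SUMO, the small modifier through which it binds SETDB1. None of 12 NuRD genes passed, with a median of 0.24 and 9 of 12 above 0. CHD4, the remodelling ATPase of NuRD, had a log2 value of 0.47 (SE 0.18) and MTA2 of 0.39 (SE 0.18). None of 12 measured SUMO genes passed, with a median of 0.22. SAE1, a subunit of the SUMO-activating enzyme, read 10.97 and 11.02 in ORM cells against 10.76 and 10.41 in control cells, giving a log2 fold change of 0.41 (SE 0.18), and the SUMO protease gene SENP6 had 0.41 (SE 0.22). These values were larger without control replicate 1 (0.59 for SAE1, 0.69 for SENP6, 0.56 for MTA2) than without control replicate 2 (0.24, 0.14 and 0.22).

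Among 14 measured genes of HUSH recruiters and nuclear RNA decay, none passed and the median was 0.21. IRF2BP2, a corepressor that works with HUSH2, had the largest difference in the list. It read 7.53 and 7.57 in ORM cells against 8.09 and 8.41 in control cells, so that both ORM arrays lay below both control arrays. The log2 fold change was -0.70 (SE 0.18), and it passed the threshold without control replicate 1 (-0.86) but not without control replicate 2 (-0.54). Its relatives IRF2BP1 and IRF2BPL had 0.02 and 0.14 (SE 0.19 and 0.21). DIS3, a catalytic subunit of the RNA exosome, had 0.50 (SE 0.16), and ZNF638, which brings HUSH to unintegrated retroviral DNA, had 0.27 (SE 0.17).

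Of 18 measured genes of other silencing or restriction of retroelements, none passed and the median was 0.18. The cytidine deaminase genes APOBEC3B and APOBEC3G, whose products restrict retroelements, had values of -0.65 and -0.66 (SE 0.19 and 0.23). APOBEC3G was past the threshold without control replicate 1 (-0.96) but not without control replicate 2 (-0.36). APOBEC3B read 4.12 and 4.01 in ORM cells against 4.91 and 4.51 in control cells, and its ORM signals lay below the lower quartiles of those arrays (4.18 and 4.14). The DNA methyltransferase gene DNMT3A and the helicase gene HELLS had 0.43 and 0.44. In this list 15 of 18 genes had a value above 0, and brightness was not matched.

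Loss of HUSH is known to raise interferon-stimulated genes through double-stranded RNA from retroelements. Here none of 24 measured genes of that response passed, with 12 above 0 and 12 below 0 and a median of 0.01. MX1, an antiviral GTPase, read 4.28 and 4.43 in ORM cells against 3.93 and 3.70 in control cells, giving a log2 fold change of 0.54 (SE 0.17). Its control signals lay below the lower quartile of both control arrays (4.26), and whether they were above background is not known. IRF9, a subunit of the transcription factor that interferon activates, had -0.57 (SE 0.22), with -0.79 without control replicate 1 and -0.34 without control replicate 2. The RNA sensor genes RIGI and IFIH1 had 0.46 and 0.35.

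Many ZNF genes encode KRAB zinc finger proteins, which bind TRIM28, and clusters of such genes on chromosome 19 are themselves bound by HUSH and SETDB1. Of 233 ZNF genes on chromosome 19, 3 rose past the threshold and none fell (1.29% higher, against 0.424% of all probe sets), with a median of 0.07. ZNF416 read 5.85 and 5.98 in ORM cells against 4.71 and 4.62 in control cells, giving a log2 fold change of 1.25 (SE 0.16). ZNF549 had 1.07 (SE 0.17) and ZNF480 had 0.87 (SE 0.18), the latter not past the threshold without control replicate 2 (0.72), without ORM replicate 1 (0.84) and with quantile normalization (0.81). Of 249 ZNF genes elsewhere (0.803% higher), which include ZNF644 and ZNF638 above, ZNF483 and ZNF268 rose, with 1.22 (SE 0.17) and 0.89 (SE 0.16), and none fell. The control signals of ZNF483 (3.78 and 3.58) and that of ZNF549 in control replicate 2 (4.24) lay below the lower quartile of 4.26. The counts depended on the array left out and rose most, in both lists, without control replicate 1. In some of these fits genes also fell past the threshold, but in each list more were higher than lower every time. Over all probe sets the number past the threshold also rose most without control replicate 1, with more lower than higher. Such a fit leaves 1 array in a group and is a weak check. At a fold change over 1.5, 10 were higher and 0 lower on chromosome 19, and 9 higher and 5 lower elsewhere. In ZNF416, ZNF549, ZNF483 and ZNF268 the call was the same without control replicate 2. ZNF268 did not pass without ORM replicate 1 (0.81). All 5 had an adjusted p of 0.428 from limma, and zinc finger genes are similar in sequence, so probes may read relatives in part.

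The clustered protocadherin genes, which SETDB1 is known to repress in mouse neurons, had the lowest median of the lists, -0.09, and 0 of 16 passed. PCDHB9 and PCDHB4 had values of -0.57 and -0.54 (SE 0.17 and 0.20). Without control replicate 2 PCDHB4 had -0.31. Its ORM signals (3.63 and 3.77) and that of control replicate 1 (4.01) lay below the lower quartiles of their arrays.

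**Figure D4:**
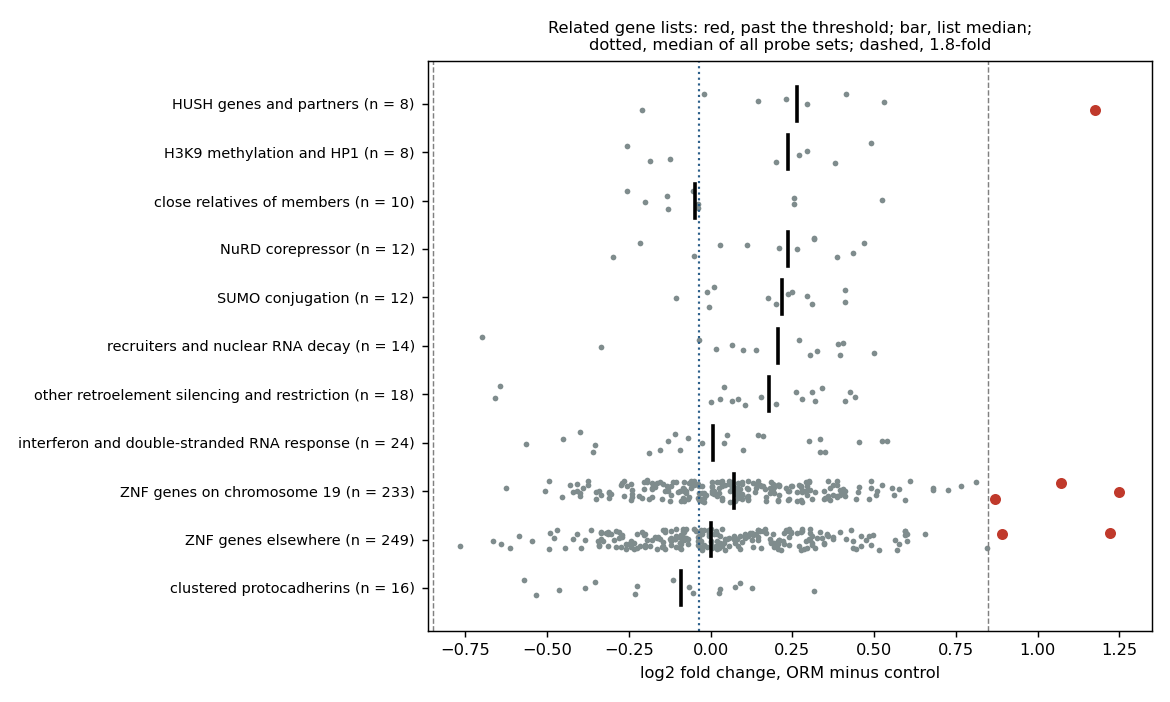
Log2 fold change of ORM against control cells (x axis) for the 8 genes and the genes of 10 related lists (y axis, with the number measured). Each point is a gene, red where past the threshold, black bars are medians, and the dotted line is the median of all probe sets. The only red points are TASOR2 and 5 ZNF genes, all higher in ORM cells.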

How the data were processed

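RNA of Jurkat cells was measured on 4 Clariom S arrays, 2 of ORM cells and 2 of control cells. The deposited values are log2 signals per probe set, which the authors' genomics unit processed, normalized and log2 transformed. RMA and Transcriptome Analysis Console are named in the notes of the submitters, with versions not given in the sources used here, and background correction was taken as deposited.

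All 21448 probe sets entered 1 linear model (limma 3.58.1, R 4.3.3, lmFit followed by eBayes, default settings, no filter on dim probe sets). The threshold was that of the study for these arrays, a fold change over 1.8 with an unadjusted two-sided p under 0.05, and Benjamini-Hochberg adjustment was made over all probe sets. In simulated data, 0.643% of probe sets with no set difference passed the threshold, both directions counted together. Of those with a set difference, 10.6% passed at 1.5-fold, 76.8% at 2-fold and 99.3% at 3-fold. In the data themselves, 151 of 21448 probe sets passed in either direction, 0.424% as higher and 0.28% as lower. The simulated 0.643% is to be set against these 2 shares together, not against each alone. Gene symbols came from the platform's annotation, which gives 1 symbol for 17709 probe sets and lists none for 3739. Each of the 8 genes has 1 probe set in it. Genes of a list were represented by their brightest probe set. Gene positions and promoter windows are those of RefSeq on GRCh38.p14.

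The genes and the 10 related lists were chosen with earlier results of these data known. Named from each list were at most 4 genes past the threshold, by the smallest p, or the 2 genes with the smallest p where none passed. Named beside TASOR2 were the 5 genes whose 4 values, each minus the mean of its probe set, had the smallest root mean square difference from those of TASOR2. Alternatives were quantile normalization, centring of arrays on their medians, a mean log2 signal of at least 5, a replicate block, eBayes with trend and robust estimation, fold changes over 1.5 or 2, the methods' t-test, averages over the probe sets of each gene and each array left out in turn.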

Additional observations from a re-analysis of the deposited data

How the results depend on the processing

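By the methods' t-test, which uses only the spread of the gene itself, 0 of the 8 genes passed. Under the other alternatives that kept all arrays, TASOR2 was the 1 of the 8 genes past the threshold. A lower fold change could not remove it, and averaging could not change a gene with 1 probe set, so neither is a check on TASOR2. Leaving out 1 array gave TASOR2 log2 fold changes of 0.94 to 1.42. The median over the 8 genes was 0.23 with quantile normalization, 0.32 with arrays centred on their medians and 0.20 to 0.29 with 1 array left out. The replicate block cannot change a log2 fold change, since each block holds 1 ORM and 1 control array. Its median of 0.26 is therefore no check. The labels do not pair the samples, and over probe sets the replicate deviations of ORM and control arrays correlated by only 0.09, so the numbers were not taken as pairs. The block left 1 of the 8 genes past the threshold and changed no call among them. MORC2 turned from -0.02 to 0.04 with quantile normalization, to 0.0325 with centred arrays and ranged from -0.28 to 0.24 with 1 array left out. SETDB1 turned from 0.15 to -0.06 without control replicate 1 and reached 0.35 without control replicate 2. The cause was not tested.

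Over all probe sets, 151 passed, against 941 at a fold change over 1.5, 68 over 2, 49 by the methods' t-test and 100 to 1009 with 1 array left out. For the genes of the 10 related lists together the number was 5, against 27 at a fold change over 1.5, 3 over 2, 3 when dim genes (mean log2 signal under 5) were left out and 6 to 20 with 1 array left out. No probe set had an adjusted p under 0.05 from limma or by the t-test, with 2447 at an unadjusted p under 0.05 from limma. A fit with 1 array left out takes the spread of that group from the other pair, so its calls are no proof of stability. With 2 arrays a group, small differences lie within the spread of the arrays.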
